A study of Mus musculus with 4 samples.

Results

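A set of 40 cell cycle genes, grouped as genes with promoters of the NFY type (NFY is a factor that binds CCAAT), was followed through 4 ATAC-seq libraries, among 21468 mouse protein-coding genes with a known strand. The members were fixed by name. For each gene, the strongest peak whose summit (its highest point) lay within 1000 bp of the transcription start site (TSS) was taken as its promoter peak. The TSS was the 5′ end of the gene record. Other peaks with a summit inside the gene and more than 1000 bp from the TSS were taken as gene body peaks.

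ATAC-seq uses the Tn5 transposase, which inserts sequencing adapters into accessible DNA, so that reads pile up over open chromatin. The cells were RAW264.7, an established line of mouse macrophages, labelled wild type (WT). In all 4 libraries the cells were exposed to 25 ug/mL DIL-oxLDL, a dye-labelled oxidized low-density lipoprotein, over 24 h. Control 1 and control 2 had DMSO, the solvent, while esculetin 1 and esculetin 2 had the plant coumarin esculetin at 40 ug/mL. The line is a dividing, transformed macrophage model, and all libraries came from it. The labels do not say that replicates came from separate cultures, so the spread between them may be technical.

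The lists held 19595 and 27833 peaks in the controls and 8677 and 12792 in the esculetin libraries, while the background coverage, a measure of depth, was 6.51 and 4.08 against 4.97 and 4.1. Control 2 stood apart: 7.4% of its summits lay inside annotated pseudogenes, against 1.97% in control 1, 1.24% in esculetin 1 and 0.836% in esculetin 2. Among 12 macrophage markers, 4 and 6 had a promoter peak in the controls and 1 and 4 in the esculetin libraries, and Spi1, a defining macrophage transcription factor, had one in all 4. The marker shares were 33.3%, 50%, 8.33% and 33.3% in control 1, control 2, esculetin 1 and esculetin 2. Coding genes at large had 37.3%, 38.8%, 27.9% and 34.9%, so macrophage markers stood above them in control 2 only. Csf1r, Adgre1, Itgam, Cybb, Mertk and Mpeg1 had no promoter peak in any library. Of 10 kidney epithelium markers and 8 T and B lymphocyte markers none had a promoter peak in any library, and of 8 fibroblast markers 1 had one, in control 2 only. Promoter peaks of markers of other cell types were thus at or near 0, while their gene body peaks are given with those of the members.

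NFY is a trimer of NFYA, NFYB and NFYC that binds the CCAAT box and helps to hold promoters open. In cell cycle promoters CCAAT boxes often stand in short arrays upstream of the TSS, close to a CHR element, which the DREAM and B-Myb complexes bind, or to E2F sites. Through them the genes of DNA replication are switched on at the entry to S phase and those of mitosis in G2. The CCAAT box is distinct from the site of C/EBP factors, in spite of the shared name.

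The stretches before the TSS of 9 members are shown because they carry the results below: members lower after esculetin (Cdk1, Ccnb1, Cdc20, Mcm3), members with a peak in 1 or both controls and no esculetin library (Ccnb2, Plk1), a member higher after esculetin (Pcna), the member with most CCAAT boxes (Top2a) and a member with none (Ccne1). They are RefSeq sequences of GRCm38.p6, the assembly of mm10, written 5′ to 3′ on the strand of the gene, with CCAAT or its reverse complement ATTGG in capitals. Cdk1 (chr10:69352913-69353132), Ccnb1 (chr13:100786487-100786636), Ccnb2 (chr9:70421555-70421704), Cdc20 (chr4:118437344-118437493), Mcm3 (chr1:20820313-20820462), Pcna (chr2:132253181-132253330), Top2a (chr11:99024200-99024429) and Ccne1 (chr7:38107491-38107640) lie on the minus strand and Plk1 (chr7:122159285-122159434) on the plus strand.
Cdk1: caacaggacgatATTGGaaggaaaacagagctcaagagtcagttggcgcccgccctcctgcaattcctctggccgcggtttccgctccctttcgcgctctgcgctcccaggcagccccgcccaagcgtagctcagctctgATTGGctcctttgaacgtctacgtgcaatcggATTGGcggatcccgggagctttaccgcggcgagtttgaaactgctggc
Ccnb1: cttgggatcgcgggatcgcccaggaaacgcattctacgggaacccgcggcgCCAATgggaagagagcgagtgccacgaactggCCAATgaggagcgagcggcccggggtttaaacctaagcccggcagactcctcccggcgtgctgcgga
Ccnb2: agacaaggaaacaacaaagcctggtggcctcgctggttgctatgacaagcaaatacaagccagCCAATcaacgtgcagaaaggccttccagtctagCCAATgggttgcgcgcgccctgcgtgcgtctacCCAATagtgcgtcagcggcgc
Cdc20: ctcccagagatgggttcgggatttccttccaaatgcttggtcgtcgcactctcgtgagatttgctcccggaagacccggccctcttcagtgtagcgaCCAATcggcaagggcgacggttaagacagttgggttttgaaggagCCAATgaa
Plk1: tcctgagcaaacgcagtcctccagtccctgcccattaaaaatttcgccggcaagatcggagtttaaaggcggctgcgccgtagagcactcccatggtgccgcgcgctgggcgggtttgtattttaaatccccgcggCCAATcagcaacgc
Mcm3: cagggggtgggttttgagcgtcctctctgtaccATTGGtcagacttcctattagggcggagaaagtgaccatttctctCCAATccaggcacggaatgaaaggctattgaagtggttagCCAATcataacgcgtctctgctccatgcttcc
Pcna: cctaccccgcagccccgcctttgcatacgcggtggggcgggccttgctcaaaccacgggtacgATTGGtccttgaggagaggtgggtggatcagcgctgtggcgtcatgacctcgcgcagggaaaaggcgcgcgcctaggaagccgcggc
Top2a: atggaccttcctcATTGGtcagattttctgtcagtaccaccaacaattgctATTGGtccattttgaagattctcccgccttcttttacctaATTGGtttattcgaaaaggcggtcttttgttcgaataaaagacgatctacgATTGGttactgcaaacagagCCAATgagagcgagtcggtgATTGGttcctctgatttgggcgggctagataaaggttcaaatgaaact
Ccne1: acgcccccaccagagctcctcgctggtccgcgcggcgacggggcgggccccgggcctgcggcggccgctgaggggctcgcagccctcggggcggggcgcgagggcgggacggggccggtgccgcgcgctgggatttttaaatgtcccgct

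Nearly every member had an accessible promoter in the control cells. A promoter peak was called for 38 members in control 1, 37 in control 2, 31 in esculetin 1 and 36 in esculetin 2, of 40. Over all protein-coding genes, the shares with a promoter peak were 37.3%, 38.8%, 27.9% and 34.9% in the same order. The group means for the members were 37.5 ± 0.707 (SD, n = 2) in the controls and 33.5 ± 3.54 (SD, n = 2) after esculetin, so the difference of 4 genes was close to the spread of the esculetin libraries. For protein-coding genes at large, 8165 ± 221 against 6739 ± 1070 genes had a promoter peak (SD, n = 2 each), and the two-sided exact permutation test over libraries gave p = 0.33, the smallest it allows. When each list was reduced to its 8677 strongest peaks, 33 and 23 members were called in the controls and 31 and 36 after esculetin. The shares of coding genes were then 25.5% and 18.1% against 27.9% and 30.2%, so the direction of the difference depended on the lengths of the lists in both.

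By pattern, 30 members were called in all 4 libraries, against 24.8% of coding genes. Plk1 and Tyms were called in both controls and in no esculetin library, a pattern of 3.34% of coding genes. No member was called only in both esculetin libraries, as 0.41% of coding genes were. Cdk2, Rrm1, Cdc25b and Cenpe lacked a peak in esculetin 1 alone, against 5.57% of coding genes, and esculetin 1 had the shortest list. Without esculetin 2, 6 members were called in the controls only, beside 8.91% of coding genes. With lists of 8677 peaks, 0 members were called in the controls only, beside 0.47% of coding genes, and 3 (Bub1b, Mcm2 and Kif11) in the esculetin libraries only, beside 4.11%. Bub1b lacked one in control 2 alone, Rrm2 had one in control 2 and esculetin 2, and Ccnb2 had one in control 1 alone. Aurkb was called in no library, a state it shared with 56.4% of coding genes.

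**Figure D1:**
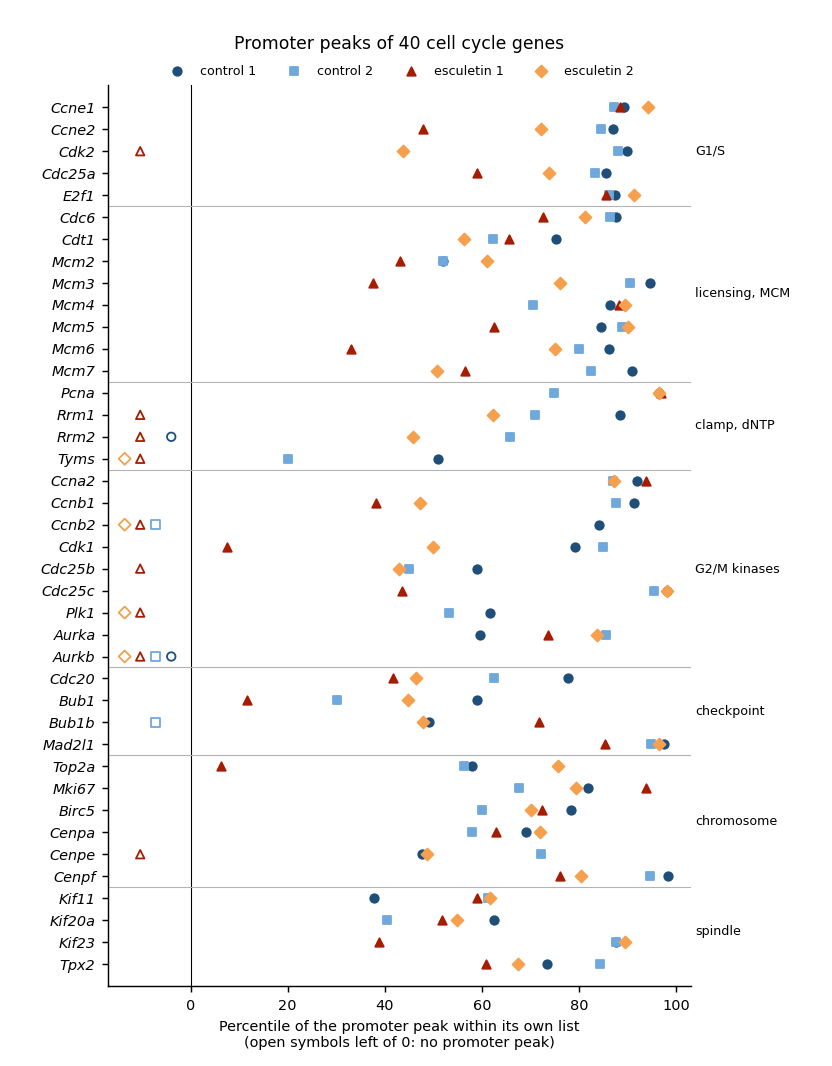
Percentile of the promoter peak within its own list (x axis, from 0 for the weakest to 100 for the strongest peak) for each of the 40 members, grouped by role, with 1 symbol per library. Open symbols left of 0 mark libraries with no promoter peak. Of the 30 members called in all 4 libraries, 11 have both controls to the right of both esculetin symbols, and Pcna and Mcm4 have them to the left.

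The strength of a promoter peak is given in 2 ways. The percentile is the rank of the −log10 p of the peak within its own list. The relative coverage is the number of reads over the summit, divided by the median of that number over the 5323 coding promoters called in all 4 libraries of the same library (46, 40, 36 and 40 reads). A value of 1 is thus a typical promoter of that library. With 2 libraries per group, the exact permutation test for a single gene cannot give less than p = 0.33, and that value holds for every gene below whose groups do not overlap.

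The G1/S members drive the entry into S phase. Ccne1 and Ccne2 encode the E cyclins that activate CDK2. The Ccne1 peak stood at percentiles 89.2 and 87.3 in the controls and 88.4 and 94.3 after esculetin, among the 5 highest means of the 30 members called in all 4 libraries. Ccne1 had no CCAAT box in its promoter window. Ccne2 stood at 87 and 84.5 in the controls and at 47.8 and 72.2 after esculetin, with relative coverages of 1.17, 1.2, 0.833 and 0.925. The groups did not overlap for Ccne2 by either measure, whereas the percentiles of Ccne1 overlapped. The Ccne2 summits lay 830 to 867 bp inside the gene record, so the peak is not at the 5′ end of that record. Ccne2 had no entry among the RefSeq starts, so another start could not be checked. Cdc25a, a phosphatase that activates cyclin-dependent kinases, stood at 85.6 and 83.3 against 58.9 and 73.8. Cdk2 stood at 90 and 88.1 in the controls, had no peak in esculetin 1 and stood at 43.7 in esculetin 2. E2f1, the transcription factor of S-phase genes, stood at 87.5 and 86.2 against 85.5 and 91.4, and the groups overlapped.

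Origin licensing genes load the MCM helicase onto DNA, and all 8 members of this role were called in all 4 libraries. Mcm3, a helicase subunit with 3 CCAAT boxes, had 56 and 54 reads over its summit in the controls and 26 and 36 after esculetin. Its relative coverage was 1.28 ± 0.0938 in the controls and 0.811 ± 0.126 after esculetin (SD, n = 2 each), a log2 ratio of -0.66. Both esculetin libraries lay below both controls. The percentiles of Mcm3 were 94.7 and 90.5 against 37.6 and 76. Mcm6 stood at 86.2 and 80 against 33 and 75, and Mcm7 at 90.9 and 82.4 against 56.5 and 50.7. Both of these helicase subunits were lower in both esculetin libraries, with relative coverages of 1.06 ± 0.0438 against 0.799 ± 0.108 for Mcm6 and 1.39 ± 0.0546 against 0.914 ± 0.161 for Mcm7. Much of the size came from esculetin 1 for Mcm3 and Mcm6: without it the difference of their percentiles was -16.6 in place of -35.8 and -8.12 in place of -29.1. The Mcm7 difference was -36 without esculetin 1. With lists of 8677 peaks the differences of Mcm3, Mcm6 and Mcm7 were -27.6, -4.28 and -19.7. Of these genes only Mcm3 was then without overlap. The Mcm7 summits lay at 785 and 173 bp from the TSS in the controls and at 128 and 832 bp after esculetin, so its values mix different positions within each group.

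Mcm4, a subunit of the same helicase, went the other way. Its percentiles were 86.5 and 70.6 in the controls and 88.3 and 89.4 after esculetin, and its relative coverage was 0.983 ± 0.117 against 1.33 ± 0.0432 (log2 ratio 0.44, SD, n = 2 each). Without control 2 the difference of its percentiles was 2.34 in place of 10.3. The start of Prkdc, a DNA repair kinase, lies 44 bp away on the opposite strand, so the peak is shared by both genes. Mcm2, with 1 of the 3 lowest mean percentiles among the 30 members called in all 4 libraries, stood at 51.9 and 52 against 43.1 and 61, and Mcm5 at 84.6 and 88.8 against 62.6 and 90.1, with overlap. The licensing factor Cdt1 also overlapped, at 75.3 and 62.2 against 65.6 and 56.3. Cdc6, which recruits Cdt1 and MCM, was lower by percentile (87.7 and 86.4 against 72.5 and 81.2) but not by relative coverage (1.09 and 1.05 against 1.14 and 1.07). For Cdc6 the order of the groups therefore depended on the measure.

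Among the genes of the replication clamp and of nucleotide synthesis, Pcna had the strongest peaks. Pcna encodes the sliding clamp of the DNA polymerases. It had 64 and 46 reads over the summit in the controls and 66 and 63 after esculetin, at percentiles 96.4 and 74.9 against 96.9 and 96.5. Its relative coverage was 1.27 ± 0.171 against 1.7 ± 0.183 (SD, n = 2 each), a log2 ratio of 0.42, and both esculetin libraries were above both controls. Control 2 carried most of the percentile difference of Pcna, which was 0.308 without it in place of 11. Its summit lay at 419 bp from the TSS in control 2 and at -92, -100 and -131 bp in control 1, esculetin 1 and esculetin 2. The start of Cds2 lies 158 bp away on the opposite strand. Rrm1 and Rrm2 encode the subunits of ribonucleotide reductase. Rrm1 stood at 88.5 and 70.9 in the controls and at 62.3 in esculetin 2, and Rrm2 at 65.7 in control 2 and 45.8 in esculetin 2. Tyms, thymidylate synthase, had weak peaks in the controls (31 and 20 reads, percentiles 51 and 20.1) and none after esculetin, where the nearest summits lay 79604 and 81316 bp away. The weakest summits listed at all had 15 and 13 reads in the esculetin libraries, and whether the Tyms peaks would be called there was not tested.

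The G2/M kinases and cyclins include the member with the lowest ratio of esculetin to control. Cdk1, the kinase that drives mitosis, had 46 and 44 reads over its summit in the controls and 19 and 27 after esculetin. The exact Poisson 95% intervals, which cover counting error only, were 33.7 to 61.4 and 32 to 59.1 in the controls and 11.4 to 29.7 and 17.8 to 39.3 after esculetin. Its percentiles were 79.2 and 84.9 against 7.58 and 50, and their difference was -32.1 without esculetin 1 in place of -53.3. The relative coverage of Cdk1 was 1.05 ± 0.0707 against 0.601 ± 0.104 (SD, n = 2 each), and its log2 ratio of -0.8 was the lowest of the 30 members called in all libraries. Ccnb1, the cyclin B partner of CDK1, had 53 and 47 reads against 28 and 27, at percentiles 91.4 and 87.7 against 38.1 and 47.2. Its relative coverage was 1.16 ± 0.0161 against 0.726 ± 0.0727 (log2 ratio -0.68). For both genes the difference of the means was more than the SD of either group, and the groups did not overlap.

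Ccnb2, the second B-type cyclin, had a promoter peak in control 1 only, with 43 reads at percentile 84.2. In the other libraries the nearest summit lay 4310 bp (control 2), 82279 bp (esculetin 1) and 82282 bp (esculetin 2) from its TSS. The controls thus differed from each other in the call of Ccnb2. Ccna2, the cyclin of S phase and G2, stood at 92 and 87.1 against 93.8 and 87.2, with overlapping groups, and its summits lay 779 to 838 bp inside the gene record. Plk1, a mitotic kinase, had 40 and 30 reads in the controls (percentiles 61.6 and 53.3) and no peak after esculetin, where the nearest summits were 26444 and 26447 bp away. Its relative coverages in the controls, 0.87 and 0.75, were above 0.417 and 0.325, the lowest relative coverages listed in esculetin 1 and esculetin 2. Those are the weakest summits of whole lists, and whether a Plk1 peak of that strength would be called there was not tested.

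The CDC25 phosphatases remove the inhibitory phosphates from CDK1. Cdc25c had 61 and 59 reads in the controls, 27 in esculetin 1 and 63 in esculetin 2, at percentiles 98.2 and 95.4 against 43.5 and 98.1. Its 2 esculetin libraries thus differed from each other more than the group means did, and without esculetin 1 the difference of its percentiles was 1.32 in place of -26. Cdc25b stood at 58.9 and 44.9 in the controls and at 43 in esculetin 2. Aurka, a spindle pole kinase, stood at 59.6 and 85.5 against 73.6 and 83.7, with overlap. Aurkb, the kinase of the chromosomal passenger complex, had no summit closer than 2654 bp to its TSS.

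Of the spindle checkpoint genes, Cdc20 was lower in both esculetin libraries. Cdc20 activates the anaphase-promoting complex (APC/C), which the checkpoint restrains. It had 41 and 36 reads against 28 and 25, at percentiles 77.7 and 62.5 against 41.6 and 46.4, and a relative coverage of 0.896 ± 0.00615 against 0.701 ± 0.108 (SD, n = 2 each). Mad2l1, a checkpoint protein that binds CDC20, had the highest mean percentile of the members called in all 4 libraries, at 97.6 and 94.9 against 85.4 and 96.6. Its percentiles overlapped, while its relative coverage was lower in both esculetin libraries (1.43 and 1.73 against 1.25 and 1.4). The checkpoint kinase Bub1 had the lowest mean percentile of the 30 members called in all 4 libraries, at 58.9 and 30.1 against 11.6 and 44.8. Bub1b stood at 49.2 in control 1 and at 71.7 and 47.9 after esculetin.

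Chromosome and centromere genes went in several directions. Cenpf, a large kinetochore protein, had 68 and 64 reads against 38 and 38, and its relative coverage was 1.54 ± 0.0861 against 1 ± 0.0746 (log2 ratio -0.62, SD, n = 2 each). Both esculetin libraries were below both controls. Top2a, the topoisomerase that untangles sister chromatids, had 33 and 28 reads against 21 and 38, at percentiles 58 and 56.4 against 6.23 and 75.7. Its controls lay between the 2 esculetin libraries, and without esculetin 1 the difference of its percentiles was 18.5 in place of -16.2. Mki67, the gene of the proliferation marker Ki-67, stood at 81.9 and 67.7 against 93.9 and 79.4, and Birc5, a passenger complex subunit, at 78.4 and 60 against 72.3 and 70.2. Cenpa, the histone H3 variant of centromeres, stood at 69.1 and 58 against 63 and 71.9. All 3 overlapped by percentile, and Cenpa alone among them was higher in both esculetin libraries by relative coverage (0.826 and 0.7 against 0.917 and 0.9). The kinetochore motor Cenpe stood at 47.6 and 72.1 in the controls and at 48.7 in esculetin 2.

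All 4 spindle members were called in all libraries. Kif11, the motor that pushes spindle poles apart, stood at 37.7 and 61.3 against 58.9 and 61.7. Kif20a, a motor of cytokinesis, stood at 62.4 and 40.5 against 51.8 and 54.9. Both overlapped by percentile and were higher in both esculetin libraries by relative coverage, at 0.678 ± 0.0669 against 0.818 ± 0.0609 for Kif11 and 0.695 ± 0.063 against 0.819 ± 0.0982 for Kif20a (SD, n = 2 each). The Kif20a summits lay at -44 and -36 bp from the TSS in the controls and at 279 and 283 bp in the esculetin libraries, with the start of Brd8 239 bp away, so its values compare different positions. Kif23, another motor of cytokinesis, stood at 87.6 and 87.7 in the controls, 38.8 in esculetin 1 and 89.5 in esculetin 2. Tpx2, a spindle assembly factor, was lower by percentile (73.5 and 84.3 against 60.9 and 67.4), while its relative coverages overlapped.

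Across the 30 members called in all 4 libraries, the median percentile was 85.9 and 83.8 in the controls and 59.9 and 75.3 after esculetin. The 5323 coding genes called in all 4 had medians of 80.2 and 75.2 against 63.8 and 76.1. By this measure the members were above the coding median in both controls and below it in both esculetin libraries. The difference of group means was -17.2 points in the members and -7.72 in coding genes. Ranked by fold in place of −log10 p it was -6.87 and -5.9, and with lists of 8677 peaks it turned to 3.85 and 13.8. Ranked among coding promoter peaks it was -19.7 and -3.98, and with a −log10 q of at least 5 it was -21.1 and -9.48. The median relative coverage of the members was 1.1 and 1.12 in the controls and 0.917 and 0.95 after esculetin, where coding genes are at 1 by construction. Gene by gene the shift was smaller: the median log2 ratio of esculetin over control was -0.06 in the members and 0.05 in coding genes, and 16 members (53.3%) were below 0 against 45.8% of coding genes. Ratios of 15 members lay between the quartiles of coding genes (-0.22 and 0.3), 4 members (Cdk1, Ccnb1, Mcm3, Cenpf) lay under their 5th percentile of -0.6, and none above the 95th of 0.64.

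**Figure D2:**
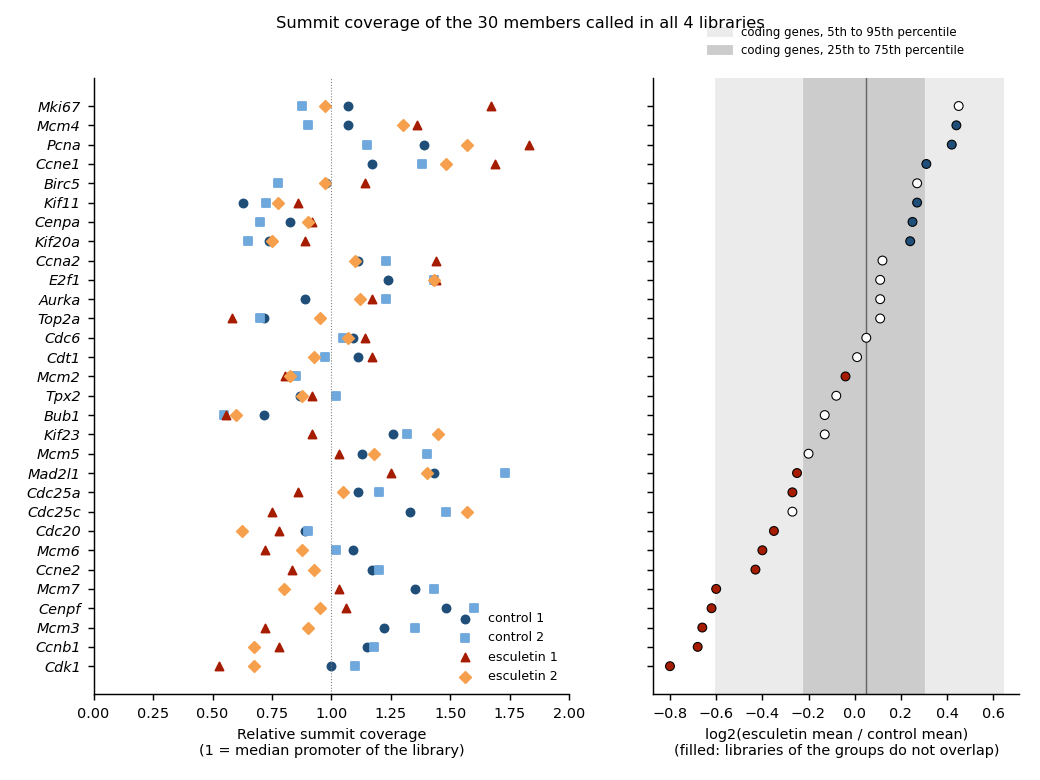
Relative summit coverage of the 30 members called in all 4 libraries (left, 1 symbol per library, 1 is the median promoter of the library) and the log2 ratio of the group means (right). Grey bands give the middle of the same ratio over 5323 coding genes. Red points mark members with both esculetin libraries below both controls, blue points the reverse, and Cdk1 is lowest at -0.8.

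By percentile, both esculetin libraries were below both controls in 11 of the 30 members, against 29.5% of coding genes. They were above both controls in 2 members, Pcna and Mcm4, against 14.7% of coding genes. By relative coverage, 11 members were lower, against 23.1% of coding genes, and 6 were higher (Ccne1, Mcm4, Pcna, Cenpa, Kif11 and Kif20a), against 29.6%. The members lower by both measures were 9: Cdk1, Ccnb1, Mcm3, Mcm6, Mcm7, Cenpf, Ccne2, Cdc20 and Cdc25a. By both measures 20% of coding genes were lower. Pcna and Mcm4 were the 2 members higher by both, beside 13.9% of coding genes. With lists of 8677 peaks, 20 members were called in all 4 libraries. Of these, 4 were lower by percentile (Cdk1, Ccnb1, Mcm3 and Cenpf, the members under the 5th percentile above) and 7 higher (Pcna, Mcm4, Ccne1, E2f1, Cdc6, Aurka and Tpx2), beside 6.71% and 37.4% of coding genes. Leaving out a library eases the condition: the lower members were 17 without control 2 and 19 without esculetin 2, beside 51.1% and 56.4% of coding genes. The higher ones were 8 without control 1, 4 without control 2, 10 without esculetin 1 and 4 without esculetin 2, beside 32.1%, 22.1%, 32.1% and 19.6% of coding genes.

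The place of the promoter peak varied little in most members. Of the 39 members with a promoter peak in any library, 31 had every summit within 200 bp of the TSS. Among the members called in all 4 libraries, the range of the summit position over libraries had a median of 66.5 bp. The largest range, 704 bp, belonged to Mcm7. In 5 members (Mcm4, Mcm7, Pcna, Aurka and Kif20a) another coding gene starts within 1000 bp, in each case on the opposite strand, so that the peak cannot be assigned to 1 gene. On either strand such a start lies near 12.5% of the 40 members and 11.3% of all coding genes, and near 16.7% of the 30 members and 28.3% of the coding genes called in all 4 libraries.

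The promoter sequences were compared next. A window from 250 bases before to 50 after a RefSeq start was matched for 33 members and 17492 coding genes. Ccne2, Mcm4, Ccna2, Cdc25c, Aurkb, Kif20a and Tpx2 had no entry. Both strands were searched, and a base could count in matches to more than 1 motif. CCAAT was present in 26 of 33 members (78.8%), against 39.2% of coding promoters and 45.9% of those called in all 4 libraries. It was also in 48 of 87 promoters (55.2%) of other cell cycle genes, a list described below. Of the members 16 had 2 or more, against 28 of those 87, 13.5% of coding promoters and 22.6% of those called in all 4 libraries. Top2a had 6. In 7 members (Ccne1, E2f1, Cdc6, Cdt1, Mad2l1, Birc5 and Tyms) the window held no CCAAT, so the name of the group does not rest on this motif for them. The RefSeq start of the window lay within 75 bp of the 5′ end of the gene record in 28 members and further inside it in 5, by 466 bp in E2f1, 442 bp in Cdc6, 512 bp in Cdc25b, 316 bp in Aurka and 228 bp in Mcm7. For E2f1 and Cdc6, every promoter peak summit fell outside the window searched. The list was drawn up as one of NFY-type promoters, and its CCAAT share is a description.

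Other motifs gave the following shares. The CHR, searched as TTTGAA or TTCGAA, was in 16 members (48.5%), and each of these 16 members also held CCAAT. It was in 18.2% of coding promoters, 13.1% of those called in all 4 libraries and 42.5% of the 87 other cell cycle promoters. With bases before the TSS only, CHR was in 9 members (27.3%), against 16.5% of coding promoters and 24.1% of the 87. An E2F site was searched as TTTGGCGC, TTTGCCGC, TTTCGCGC or TTTCCCGC. It was in 9 members (27.3%), against 2.94% of coding promoters, 5.46% of those called in all 4 libraries and 18.4% of the 87. The members with an E2F match were Cdk2, Cdc25a, Cdc6, Cdt1, Mcm3, Mcm5, Mcm6, Mcm7 and Cdk1, and all but Cdk1 are genes of the G1/S transition or of replication. The GC box GGGCGG was in 28 members (84.8%), against 46.3% of coding promoters, 75% of those called in all 4 libraries and 71.3% of the 87. The TATA box, searched as TATAAA, was in 0 of 33 members. It was in 13.3% of coding promoters, 5.17% of those called in all 4 libraries and 4.6% of the 87. The C/EBP motif TTGCNNAA was in 2 members (6.06%), Mcm3 and Pcna, against 10.1%, 7.08% and 3.45% of these sets in the same order. The RUNX motif TGTGGT was in 4 members (12.1%), against 15.1%, 10.8% and 13.8%. For RUNX the members were thus below coding promoters at large but above those called in all 4 libraries.

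**Figure D3:**
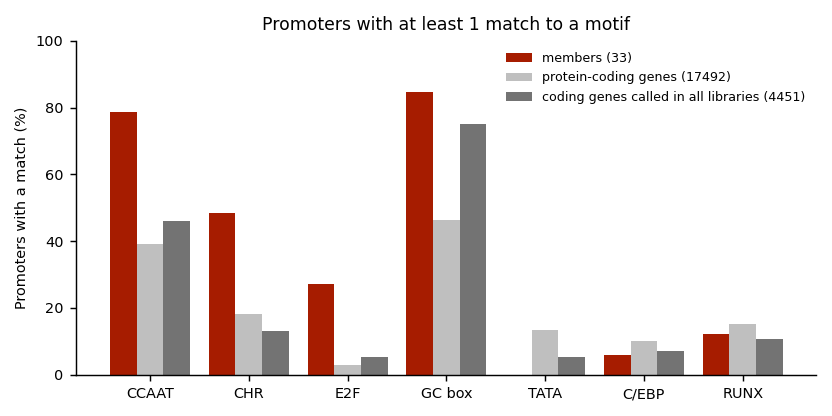
Share of promoter windows (y axis, percent) with at least 1 match to each motif, for 33 members, 17492 coding genes and the 4451 of these called in all 4 libraries. CCAAT is in 78.8% of members against 39.2% of coding promoters, and TATA in none of the members.

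The CCAAT boxes of the members lay close to the peak. Their first base had a median position of -69.5 relative to the TSS, and 65.4% of the 52 boxes started between 120 and 20 bases before it, against 49.2% in coding genes. Neighbouring boxes were 20 to 50 bases apart in 22 of 26 pairs (84.6%), against 41.2% of pairs in coding promoters. In the Ccnb2 stretch above, for example, 3 boxes of 1 orientation follow each other upstream of the TSS. The distance from the summit to the nearest CCAAT box was taken where the summit lay inside the window of 300 bases, which limits the distance itself. Its median over 24, 22, 19 and 23 members was 25, 20.5, 23 and 25 bp in control 1, control 2, esculetin 1 and esculetin 2, against 32, 31, 31 and 29 bp in coding genes under the same condition.

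**Figure D4:**
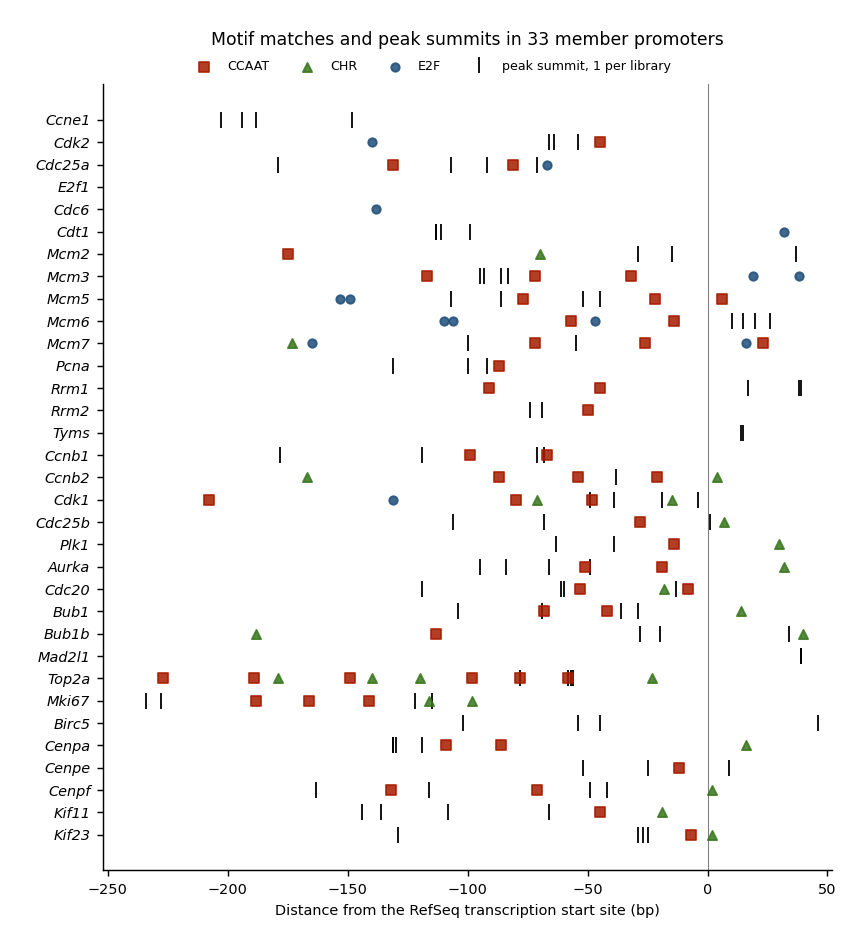
Matches to CCAAT, CHR and E2F motifs (symbols) and the summit of the promoter peak in each library (vertical marks) against the distance from the RefSeq TSS in bp (x axis) for 33 members. Red squares lie mostly between 120 and 20 bp before the TSS, where many summits fall.

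The change after esculetin was set beside the number of CCAAT boxes. The median log2 ratio of relative coverage was 0.08 in the 6 members without a box that were called in all 4 libraries and 0.12 in the 4 with 1 box. It was -0.31 in the 8 with 2 boxes and -0.4 in the 6 with 3 or more. The last 6 ran from -0.8 (Cdk1) to 0.45 (Mki67), and Top2a, with 6 boxes, was at 0.11. For E2f1 and Cdc6, counted as without a box, every promoter peak summit fell outside the window searched. For Mcm7, with 3 boxes, the summits of control 1 and esculetin 2 did. Their box counts therefore do not describe the sequence under those summits. Ratios below 0 were found in 1, 2, 6 and 4 members of these classes (16.7%, 50%, 75% and 66.7%), beside 46%, 49%, 43% and 36.4% of coding genes. Coding genes at large had medians of 0.05, 0.01, 0.07 and 0.12 for 0, 1, 2 and 3 or more boxes. The difference between the members and coding genes was not tested, since genes are not replicates. Of the members with 0, 1, 2 and 3 or more boxes, 6 of 7, 4 of 10, 8 of 9 and 6 of 7 were called in all 4 libraries, beside 22.6%, 23%, 35.6% and 58.5% of coding genes. The members with 1 box were called at 90%, 90%, 50% and 90% in control 1, control 2, esculetin 1 and esculetin 2, beside 34.9%, 35.9%, 26% and 32.6% of coding genes with 1 box. These shares were not tested.

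Gene body peaks of the members came almost wholly from 1 library. Control 2 had 35 of them in 19 members, control 1 had 1 (in Rrm2), and the esculetin libraries had 0. The group means were 18 ± 24 and 0 (n = 2 each), so the spread of the controls was larger than the difference, and without control 2 the difference was 1 peak. Among coding genes, 19.3%, 31.1%, 7.35% and 12.1% had a gene body peak in control 1, control 2, esculetin 1 and esculetin 2. In control 2 the 35 peaks of the members lay at a median of 63.9% of the gene length, and 8 of them (22.9%) in the fifth of the gene nearest its 3′ end. Mcm3 had 5, Top2a and Mcm2 had 4 each, and Rrm1 and Kif23 had 3 each. The 3 highest, 2 in Mcm4 (85 and 76 reads) and 1 in Mcm7 (80 reads), exceeded the promoter peaks of the same genes in that library (36 and 57 reads). Control 2 was also the library with most summits in pseudogenes, and it alone had gene body peaks in fibroblast markers: 12 in 4 of 8 genes (Col1a1, Col1a2, Col3a1 and Pdgfra), against 0 in the other libraries. The excess in control 2 was not particular to fibroblast markers. Macrophage markers had 4, 14, 2 and 1 gene body peaks in control 1, control 2, esculetin 1 and esculetin 2, in 3, 8, 1 and 1 of 12 genes. In the same order, T and B lymphocyte markers had 4, 1, 1 and 2, and kidney epithelium markers 2, 0, 0 and 0. The part of any of these in the members' gene body peaks was not tested.

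**Figure D5:**
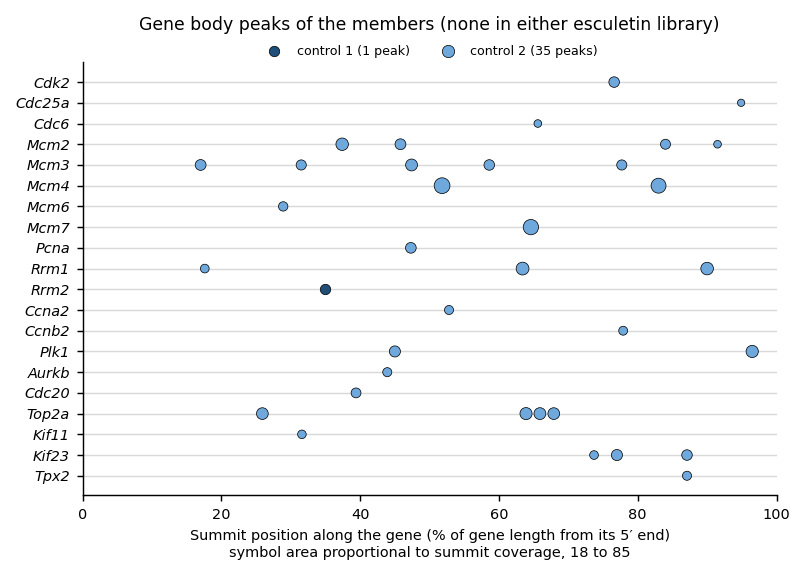
Position of gene body peaks along each member gene (x axis, percent of gene length from the 5′ end), with symbol area in proportion to the reads over the summit. Of 36 peaks, 35 are from control 2 and 1 from control 1, and neither esculetin library has any.

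The 107 other cell cycle genes gave the wider setting. Of these, 69 were called in all 4 libraries, 5 in both controls only, 0 in both esculetin libraries only and 15 in none, beside 24.8%, 3.34%, 0.41% and 56.4% of coding genes. The 5 controls-only genes were E2f4 and Lin9, which encode parts of the DREAM complex, Pola1 of DNA polymerase alpha, the separase gene Espl1 and the centromere gene Cenph. By percentile, 20 of the 69 were lower in both esculetin libraries and 5 higher, beside the coding shares of 29.5% and 14.7%. By relative coverage 17 were lower and 17 higher, beside 23.1% and 29.6%. Of 23 other S phase genes called in all 4 libraries 10 were lower and 1 higher by percentile, and 8 were lower and 3 higher by relative coverage. Of 28 other G2/M genes 4 were lower and 2 higher by percentile, but 5 were lower and 9 higher by relative coverage, so their balance turned with the measure. Of the NFY subunit genes, Nfya stood at 97.2 and 78.7 in the controls and 96.4 and 97.8 after esculetin, Nfyb at 88.3 and 65.3 against 82.8 and 93.6, and Nfyc had no promoter peak. The percentiles of Nfya and Nfyb overlapped between the groups, while their relative coverages were higher in both esculetin libraries (1.57 and 1.23 against 2.22 and 2.02 for Nfya, 1.15 and 0.85 against 1.25 and 1.45 for Nfyb).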

How the data were processed

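ATAC-seq peak lists of 4 RAW264.7 libraries were used, grouped by the treatment in the labels. Per the study's methods and processing notes, the authors used Trim-Galore for trimming, Bowtie2 for alignment to mm10, Sambamba to drop duplicates and reads with several placements, and MACS2 for the peaks of each library. Caller options, such as a shift of read ends, are not given in the sources used here. The deposited fold enrichment is a ratio of summit coverage to background, and the authors' lists also give −log10 p, −log10 q and a score. No counts per gene were used, so no count model was run.

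The read number over each summit was solved from fold and p. All peaks of the 4 lists gave 1 solution, and on 1986 simulated peaks 100% were recovered. RefSeq genes of GRCm38.p6 were used. Strand came from the promoter table (33 members) or, by symbol, from GENCODE vM39 (7 members), for 21468 of 21887 coding genes (98.1%). Percentiles depend on list length, which is why relative coverage was added after seeing the data. Groups were compared by two-sided exact permutation tests over libraries. Single genes were named by a rule: call patterns that differ between libraries, the 5 largest percentile differences without overlap in each direction, the 5 highest and 3 lowest means and 10 fixed examples. All other members are given by their values. Members, gene lists and ranges of positions were chosen with earlier results of these data known. Inside the esculetin lists the peak names carry the numbers 2 and 3, while the labels give 1 and 2; the numbers of the labels were used. Alternatives were windows of 500 and 2000 bp, a −log10 q of at least 5, equal list lengths, either gene end, any peak base, ranking by fold, ranking among promoter peaks, bases before the TSS only and leaving out each library. Scripts ran in Python 3.11.15 with SciPy 1.17.1, NumPy 2.4.6, pandas 2.3.3 and matplotlib 3.10.9.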

Additional observations from a re-analysis of the deposited data

How the results depend on the processing

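Differences are esculetin minus control. With equal numbers of top peaks (8677 per list), several values turned: members with a promoter peak differed by 5.5 in place of -4, protein-coding genes with one by 1546.5 in place of -1426, and the median percentile by 3.85 in place of -17.2, members called in controls only were 0 and in esculetin only 3, members without overlap were 4 lower and 7 higher, and Mad2l1 differed by 1.07. With a −log10 q of at least 5, 1 of 27 members was higher without overlap (coding genes 14%) and Mcm2 differed by -2.82. Ranked by fold, the median percentile differed by -6.87 and 5 of 30 members were higher (coding genes 15.6%), as were 5 when ranked among coding promoter peaks (20.5%). By relative coverage 6 were higher, Mcm2 differed by -0.0228 and Top2a by 0.058. Leaving out 1 library gave members with a promoter peak a range of -6.5 to -1.5, coding genes -2183 to -669, the median percentile -25 to -11.4, calls in all libraries 30 to 34, controls only 2 to 6 (coding genes 4.1% to 8.91%) and esculetin only 0 to 1 (0.647% to 1.78%), lower members 12 to 19 (37.6% to 56.4%), higher members 4 to 10 (19.6% to 32.1%) and gene body peaks -35 to -1. The percentile differences of 7 named members changed sign with a library left out: Bub1 (-32.9 to 0.376), Ccna2 (-2.3 to 4.23), Cdc25c (-53.3 to 1.32), E2f1 (-1.35 to 4.59), Mad2l1 (-10.8 to 0.356), Mcm2 (-8.9 to 9.09), Top2a (-51 to 18.5). Without esculetin 1 Bub1 stood at 0.376, Cdc25c at 1.32, Mad2l1 at 0.356, Ccna2 at -2.3 and Top2a at 18.5, without control 2 Ccna2 at -1.48, and without esculetin 2 E2f1 at -1.35 and Mcm2 at -8.9. The replicate numbers were not shown to pair the libraries: deviations of same-numbered libraries correlated at r = 0.006 across 5323 coding genes. With the replicate block the difference in coding genes was -1426 (exact paired p = 0.5, the smallest possible). In this balanced design the block leaves every mean difference as it was by construction, so it says nothing about stability. The CCAAT count was 26 with bases before the TSS only. Under that limit CHR was in 9 members in place of 16 (coding genes 16.5%). E2F was in 7 in place of 9 (2.43%) and the GC box in 25 in place of 28 (42.7%). Lists without counts, 2 libraries per group and a pile-up of 19 to 69 reads at member promoters limit these values.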

Other observations

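Across all coding genes, those with 2 or more CCAAT boxes in the promoter window were called more often. Genes with 1 box differed little from those without. A peak was called in all 4 libraries for 22.6% of the 10636 coding genes without a box, 23% of the 4502 with 1 box, 35.6% of the 1617 with 2 and 58.5% of the 737 with 3 or more. The shares called in esculetin 1, the shortest list, were 26%, 26%, 37.8% and 60.4% in the same order, against 36%, 34.9%, 46.5% and 66.8% in control 1. These are descriptions over genes, which are not replicates, and the GC content and number of GC boxes of the classes were not compared.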
